A study of Mus musculus with 28 samples.

Results

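The genes described here encode the subunits of oxidative phosphorylation. They were chosen by symbol: every gene named mt-Nd, mt-Co, mt-Cytb or mt-Atp, and every Nduf (a, b, c, s or v followed by a digit), Uqcr, Cox4 to Cox8, Atp5 and Sdh gene of the tables, without pseudogenes. The rule found 97 of the 43280 rows, 13 mitochondrially encoded and 84 nuclear. Of the nuclear genes, 37 belonged by name to complex I, 4 to complex II, 8 to complex III, 18 to complex IV and 17 to complex V. The rule also took in Atp5s and Atp5sl, which are not subunits, and it counted Ndufa4, now placed in complex IV, under complex I. Messenger RNA was measured by poly(A)-enriched sequencing in mouse testis after spermatogenesis had been synchronized: all mice, of both genotypes, received WIN 18,446, an inhibitor of retinoic acid synthesis, for 7 days and then an injection of retinoic acid (RA). Sertoli cells were sorted as RFP-positive cells from RFP-heterozygote, Amh-Cre-positive testes at 42 to 50 days after injection, in 5 groups of 2 libraries by the stages of the seminiferous cycle they were enriched for. Group A stood for stages XI-XII and group B for stages I-III. Group C stood for stages IV-VI, and the groups called D and E for the later stages VII-VIII and IX-X. Their strain was labelled C57BL/6 x 129s4/SvJae, except for 1 group A library labelled with an Amh-Cre background. Germ cell-deficient NANOS2 KO testes on a CD1 background were harvested whole and unsorted, although their cell type label also reads Sertoli, on each of 9 days from day 42 to day 50, 2 libraries a day. Amh-Cre acts in Sertoli cells and RFP marks the cells in which it acted; the labels do not say whether the 2 libraries of a group came from separate animals, so p-values measure the spread between these libraries.

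Oxidative phosphorylation passes electrons from NADH through complex I, and from succinate through complex II, to ubiquinone, then through complex III and cytochrome c to complex IV, which reduces oxygen. Complexes I, III and IV pump protons that drive ATP synthase, complex V. The mitochondrial chromosome encodes core subunits of complexes I, III, IV and V, the nucleus encodes the remainder and the whole of complex II, and several complex IV subunits exist as pairs of genes, one widely expressed and one restricted to muscle, lung or testis. Sertoli cells, the somatic nurse cells of the seminiferous tubule, are known for glycolysis that supplies lactate to germ cells, while meiotic and post-meiotic germ cells rely more on respiration.

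Sorted libraries held 1901743 to 5279746 counts and knockout libraries 1336742 to 4370138. Nanos2 itself had 2 counts in all 10 sorted libraries and 0 in all 18 knockout libraries, too few to check the labels. Summed Sertoli markers stood at 10750 to 16027 CPM (counts per 1000000 counts of the library) in sorted cells and 17307 to 20093 in knockout testes. Sorted cells also carried germ cell RNA: summed elongating spermatid markers (Prm1, Tnp1 and others) reached 3746 to 20918 CPM and spermatocyte markers 1640 to 3601, against 151 to 222 and 37.0 to 75.6 in knockout testes, where Piwil1, Pgk2, Akap4 and Smcp were among the markers at 0. Leydig cell markers summed to 2016 to 5863 CPM in knockout testes and 14 to 50.2 in sorted cells, with Insl3 and Lhcgr at 0 in the latter. Some libraries stood apart. The knockout day 49 replicate 1 library had the lowest knockout value for 12 of the 13 mitochondrially encoded genes, and of the sorted libraries D1 (group D replicate 1) had the highest value for 10 of the 13 while C1 had the lowest for 7 and D2 for 5. In whole-tissue and sorted-pool RNA, fewer cells of a type and less RNA per cell cannot be told apart.

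Transcripts of the 13 mitochondrially encoded genes made up a larger and more variable part of sorted-cell RNA than of knockout testis RNA. Their summed share of all counts was 7.97% and 6.73% in group A, 8.54% and 6.04% in B, 4.21% and 6.48% in C, 11.8% and 4.04% in D and 10.9% and 5.25% in E, a mean of 7.20% ± 2.62 (SD, n = 10). In knockout testes the mean was 2.58% ± 0.534 (SD, n = 18), with the day 49 replicate 1 library at 0.687% and the other 17 between 2.26% and 3.18% (2.69% ± 0.258, SD, n = 17). No knockout library reached the lowest sorted library. Replicates within groups D and E differed more than the group means did, so the shares showed no order of the 5 stage groups beyond the spread.

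The 84 nuclear genes varied less between libraries. Together they took 0.809% and 0.776% of counts in group A, 0.809% and 0.734% in B, 0.883% and 0.874% in C, 0.873% and 1.02% in D and 0.840% and 0.965% in E, a mean of 0.858% ± 0.0860 (SD, n = 10). Knockout libraries lay between 0.543% and 0.700%, a mean of 0.600% ± 0.0501 (SD, n = 18), again without overlap. The mitochondrially encoded sum was therefore 3.96 to 13.5 times the nuclear sum in sorted cells and 1.07 to 5.34 times in knockout testes. By complex, the mean nuclear shares in sorted and knockout libraries were 0.267% and 0.177% for complex I, 0.0554% and 0.0584% for II, 0.0893% and 0.0501% for III, 0.117% and 0.0717% for IV, and 0.330% and 0.243% for V. Complex II was the sole complex whose share was not lower in the knockout mean.

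**Figure D1:**
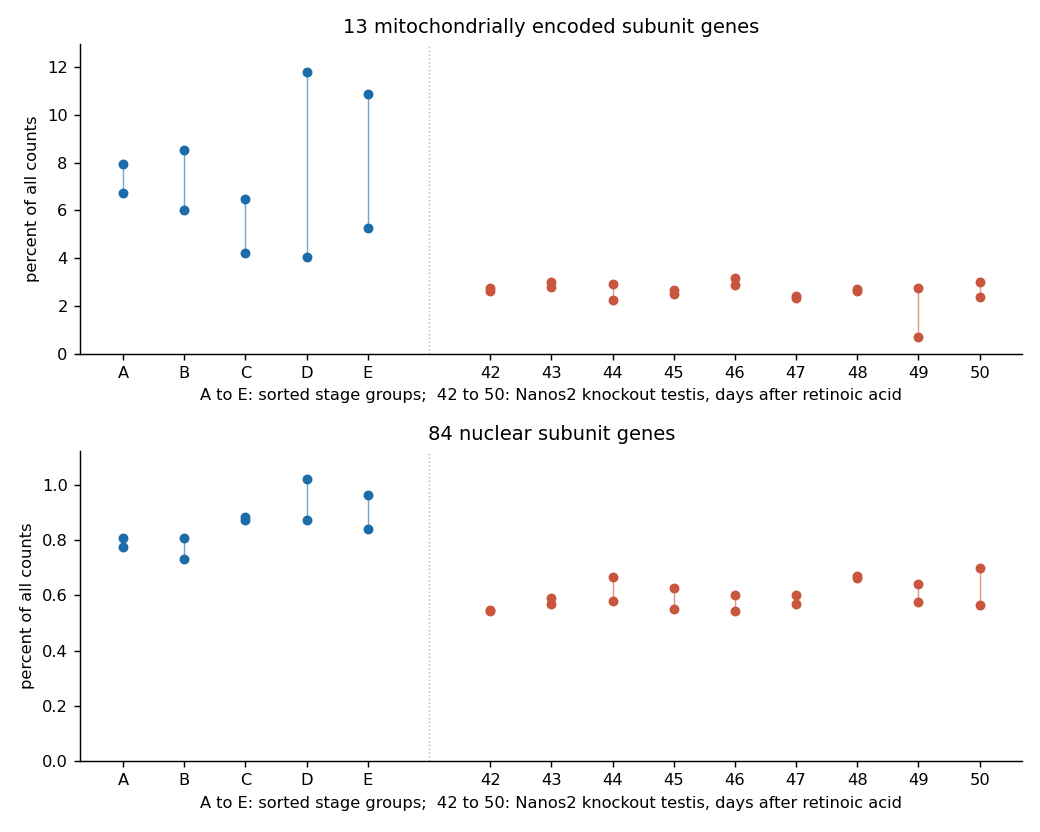
Summed share of all counts, in percent, taken by the mitochondrially encoded (upper) and nuclear (lower) subunit genes in each library (points, 2 per group joined by a line), for sorted stage groups A to E and knockout testes of days 42 to 50. Sorted libraries run from 4.04% to 11.8% and from 0.734% to 1.02%, and every knockout library lies below the lowest sorted library in both panels.

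The 13 mitochondrial genes lie on the mitochondrial chromosome (mm10, chrM; gene limits from GENCODE M21, GRCm38), each as 1 exon. On the plus strand follow mt-Nd1 (chrM:2751-3707), mt-Nd2 (chrM:3914-4951), mt-Co1 (chrM:5328-6872), mt-Co2 (chrM:7013-7696), mt-Atp8 (chrM:7766-7969), mt-Atp6 (chrM:7927-8607), mt-Co3 (chrM:8607-9390), mt-Nd3 (chrM:9459-9806), mt-Nd4l (chrM:9877-10173), mt-Nd4 (chrM:10167-11544), mt-Nd5 (chrM:11742-13565) and mt-Cytb (chrM:14145-15288). mt-Nd6 (chrM:13552-14070), a core complex I subunit, is the sole one of them on the minus strand. Several share bases with a neighbour, which bears on how reads could be counted, and 2 such overlaps are shown with the shared bases in capitals. The mt-Nd5 end (chrM:13536-13565, plus strand) and the mt-Nd6 end (chrM:13552-13581, minus strand) share 14 bases read from opposite strands, while mt-Atp8 and mt-Atp6, encoded on 1 transcript, share 43 bases in different reading frames (shown from chrM:7921-7969 and chrM:7927-7975).
mt-Nd5 last bases: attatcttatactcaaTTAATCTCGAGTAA
mt-Nd6 last bases: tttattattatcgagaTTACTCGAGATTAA
mt-Atp8 last bases: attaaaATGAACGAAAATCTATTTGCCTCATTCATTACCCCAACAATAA
mt-Atp6 first bases: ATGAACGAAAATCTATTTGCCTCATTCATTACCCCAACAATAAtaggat
The strand setting used in counting is not given in the sources used here, so reads of mt-Nd6 and of transcripts of the opposite strand may not be separated.

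Copies of mitochondrial sequence in the nuclear genome also bear on these values. Cutting each gene into windows of 50 bases, 100% of the windows of mt-Co2, 99.9% of mt-Co3, 99.5% of mt-Atp6, 98.8% of mt-Nd4l and 98.0% of mt-Nd3 were also present in an annotated nuclear pseudogene, as were 62.2% of mt-Nd4 and 51.1% of mt-Co1. mt-Nd2 (8.19%) and mt-Nd5 (7.61%) shared little, and mt-Nd1, mt-Cytb, mt-Nd6 and mt-Atp8 shared no window. The copies carried counts: Gm10925, a copy of mt-Atp6, had 573 to 2620 CPM in sorted cells and 92.6 to 1116 in knockout testes, and Gm28438, a copy of mt-Nd3, had 117 to 571 and 52.1 to 197. Levels of the 5 genes with over 90% shared windows are therefore uncertain. Adding the copies back raised the mean mitochondrial share to 7.98% in sorted cells and 2.92% in knockout testes. None of the 84 nuclear genes had over 50% of windows in a pseudogene or other gene; the median was 1.13%, and the highest were Atp5o (41.1%), Atp5g2 (38.3%), Ndufb6 (31.6%) and Ndufa13 (28.5%).

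Mean level per kilobase of gene spanned 2 orders of magnitude among the mitochondrial genes, whose transcripts are cut from long precursors of each strand. In sorted cells mt-Co1, the catalytic subunit of complex IV, led with 18165 CPM per kilobase, followed by mt-Nd1 (11423), mt-Nd2 (9754) and mt-Cytb (7958), the cytochrome b of complex III. mt-Nd4 (4125) and mt-Nd5 (2551) came next, and below them were mt-Atp6 (1550), mt-Co2 (1325), mt-Co3 (1071), mt-Nd3 (760), mt-Atp8 (553), mt-Nd4l (478) and mt-Nd6 (136). In knockout testes mt-Co1 (7208) and mt-Nd1 (3993) again led, mt-Cytb (3086) stood above mt-Nd2 (2125), and mt-Nd3 (77.5) was last, under mt-Nd6 (115). Within the summed mitochondrial counts, mt-Co1 took 35.2% to 43.7% in sorted libraries and 39.1% to 51.4% in knockout libraries, ranges that overlapped. mt-Nd2 was the sole gene of the 13 whose part of the sum did not overlap, at 11.9% to 15.4% in sorted and 6.83% to 9.54% in knockout libraries. The best-expressed nuclear genes per kilobase in sorted cells were Cox6a1 (244 CPM per kilobase), Atp5a1 (242), Atp5h (240) and Atp5b (240), far under mt-Co1.

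**Figure D2:**
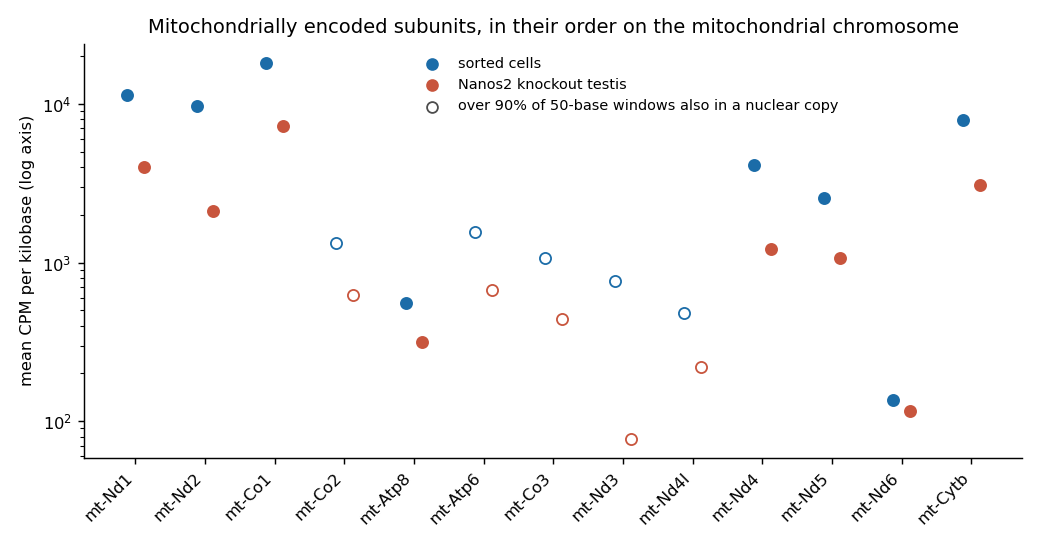
Mean CPM per kilobase (log axis) of the 13 mitochondrially encoded genes in their order on the mitochondrial chromosome, for sorted cells and knockout testes; open symbols mark genes with over 90% of 50-base windows also in a nuclear copy. mt-Co1 leads in both sets, at 18165 and 7208, and mt-Nd6 at 136 and 115 is the gene whose symbols lie closest together.

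The largest contrast of the series was between knockout testes and sorted cells, and here tissue, sorting, strain, genotype and germ cell content differ together and cannot be told apart. Using edgeR's quasi-likelihood test with Benjamini-Hochberg adjustment over 15777 genes, 85.1% of all genes were called at an adjusted p under 0.05, so a call alone says little; sizes are given beside the median of all genes, a log2 change of -0.17. Of all genes 38% were called higher and 47% lower in knockout testes. Of the 13 mitochondrial genes 12 were called and fell, with a median log2 change over all 13 of -1.68, or -1.60 without the day 49 replicate 1 library. For 6 of them (mt-Nd1, mt-Nd2, mt-Nd3, mt-Nd4, mt-Cytb and mt-Co1) every knockout library lay below every sorted library, where 18.3% of all genes did so.

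mt-Co1 is the catalytic subunit that carries the oxygen-reducing center of complex IV. It measured 33930 and 28035 CPM in group A, 32573 and 22871 in B, 18399 and 25972 in C, 43152 and 16218 in D and 41001 and 18506 in E. Knockout libraries ranged from 3531 CPM in day 49 replicate 1 to 14378, with a median of 11559 and the other 17 at 9060 or above. All 18 were under the lowest sorted library, and the log2 change was -1.72 (SE 0.16, edgeR adjusted p = 2.4e-10). mt-Nd2, a proton-pumping subunit of complex I, fell further: it ran from 4829 to 18204 CPM in sorted cells (median 9252) and from 491 to 2730 in knockout testes (median 2276), a log2 change of -2.58 (SE 0.20, edgeR adjusted p = 5.8e-12). mt-Nd3, another membrane subunit of complex I, was at 62 to 398 CPM in sorted cells (median 284) and 11 to 41 in knockout testes (median 25), the steepest fall of the 13, -3.62 (SE 0.17). The size of that fall depended on whether counts of its nuclear copy were included. With the copies' counts added, mt-Nd3 changed by -2.18 (SE 0.12), mt-Nd2 by -2.58 and mt-Co1 by -1.70. How reads were placed between genes and copies was not tested.

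The other genes of the plus strand moved alike. mt-Nd1 ran from 6529 to 18495 CPM in sorted cells and from 985 to 4903 in knockout testes, and mt-Cytb from 4426 to 15684 and from 797 to 4279; their log2 changes were -1.90 (SE 0.16) and -1.74 (SE 0.18). mt-Nd4 changed by -2.15. For the ATP synthase membrane subunit mt-Atp6 (-1.58), its neighbour mt-Atp8 (-1.16), mt-Co2 (-1.46), mt-Co3 (-1.68), mt-Nd4l (-1.55) and mt-Nd5 (-1.62), the highest knockout library overlapped the lowest sorted one. mt-Nd6, the minus-strand gene, was the exception: it measured 16.0 to 162 CPM in sorted cells (median 61.5) and 35.7 to 100 in knockout testes (median 53.8), and its log2 change of -0.31 (SE 0.15, edgeR adjusted p = 0.055) did not pass. The difference between mt-Nd6 and the other 12 was not tested.

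Among nuclear genes, 78 were tested in the sorted, knockout and joint fits alike, and of these 69 fell and 2 rose in knockout testes against sorted cells, with a median log2 change of -0.96. Of all 11526 genes tested in the 3 fits, 43.8% fell and 37.8% rose, with a median of -0.09. A called fall of over 1 on the log2 scale was found for 37 of the 78, beside 19.7% of those 11526 genes and 29.1% of all genes of the joint fit. Relative to the median of the 11526, the 78 nuclear genes stood at -0.87 and the 13 mitochondrial genes at -1.59. Over the other scalings and filters tried, the median log2 change of the 78 ran from -0.96 to -0.56. The median of all genes itself moved from -0.17 to 0.20 when limma was run on log2(CPM + 1) without scaling factors, and the calls over all genes turned from 44.7% higher to 56.5% higher. Of the 78 nuclear genes 56 were then called lower and 7 higher. Calls lost in the 3 limma fits on unscaled CPM included Sdhb, Uqcr10, Uqcrc2, Cox6a1, Cox8a, Ndufb2, Ndufb3 and Ndufa4. For 21 of the 78 every knockout library was below every sorted one and for 1 it was above. Of the 11526 genes 10.3% were below and 23% above, and of all genes of the joint fit 18.3% and 23.6%.

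**Figure D3:**
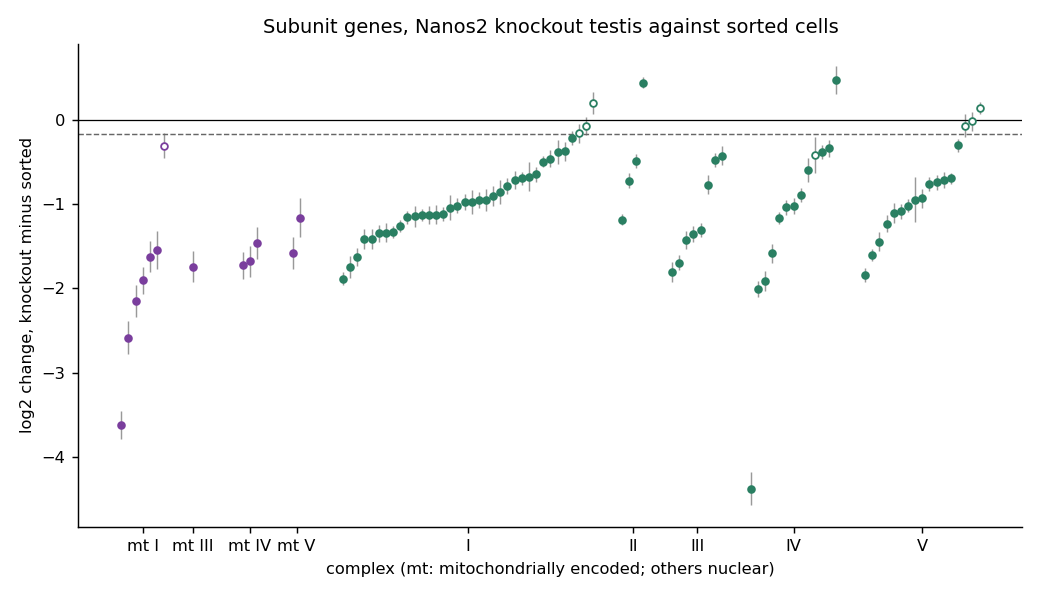
Log2 change of each subunit gene tested in the sorted, knockout and joint fits alike, knockout testis minus sorted cells, by complex, with mitochondrially encoded genes (mt) beside nuclear ones; bars are SE, open circles did not pass, and the dashed line is the median of all genes, -0.17. Nuclear genes of complexes I to V mostly lie between -2 and 0, the testis form Cox6b2 is lowest at -4.38, and Sdha and Cox7b are the 2 that rose.

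In complex I, 33 of the 36 nuclear genes tested in all 3 fits fell (median log2 change -0.97). Ndufa13, an accessory subunit also known as GRIM-19, measured 138 to 201 CPM in sorted cells (median 165) and 46.9 to 93.1 in knockout testes (median 57.5), with day 49 replicate 1 the highest of the latter; the sets did not overlap, and the log2 change was -1.88 (SE 0.08). Ndufs4, an accessory subunit needed for assembly of the NADH-oxidizing arm, went from a median of 70.6 to 37.5 CPM (-1.35, SE 0.10). Its sets did not overlap, but the highest knockout library, at 44.5 CPM, almost reached the lowest sorted one. Ndufv1, which binds FMN and accepts electrons from NADH, ran from 154 to 360 and from 71.7 to 221 CPM (-1.42), and the abundant Ndufa10 from 151 to 242 and from 67.1 to 144 (-1.02). Ndufs1, Ndufs5 and Ndufc2 did not pass, with log2 changes of -0.08, 0.20 and -0.16.

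Complex II, the enzyme shared with the tricarboxylic acid cycle, split by subunit. Sdha, the flavoprotein that oxidizes succinate (chr13:74322254-74350280, minus strand), was at 128 to 205 CPM in sorted cells (median 171) and 251 to 346 in knockout testes (median 297). Every knockout library was above every sorted library, and the log2 change was 0.44 (SE 0.07, edgeR adjusted p = 9.1e-07). The membrane anchor Sdhd moved the opposite way, from 127 to 164 CPM down to 67.3 to 94.4 (-1.18, SE 0.07), also without overlap. Sdhc, the other anchor, changed by -0.72 and the iron-sulfur subunit Sdhb by -0.49, both with overlap; the Sdhb call was lost in the 3 limma fits on unscaled CPM. The ratio of Sdha to Sdhb CPM, which is not corrected for length, was 0.924 to 2.24 in sorted libraries (mean 1.54) and 2.19 to 3.48 in knockout libraries (mean 2.83).

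All 8 nuclear genes of complex III fell, with the largest median of the complexes, -1.33. Uqcrq, a small subunit that contacts cytochrome b, was at 67.3 to 210 CPM in sorted cells and 24.9 to 72.6 in knockout testes (-1.81, SE 0.12), and the hinge protein Uqcrh went from a median of 97.2 to 39.0 CPM (-1.70, SE 0.09). The Rieske iron-sulfur protein Uqcrfs1 fell from a median of 88.2 to 44.5 CPM (-1.31). The core protein Uqcrc1 ran from 206 to 438 and from 119 to 213 CPM (-1.35), while its partner Uqcrc2 had medians of 94.0 and 83.1 CPM (-0.48). Uqcr10, a small subunit, had nearly equal medians of 62.9 and 61.4 CPM. In the 3 limma fits on unscaled CPM Uqcrc2 and Uqcr10 no longer passed, so the count of 8 holds with scaling factors.

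In complex IV, 11 of the 13 nuclear genes tested in all 3 fits fell and 1 rose (median -1.02). Cox7b2 and Cox8c, which entered the joint fit through their sorted counts alone, are not in that count. Cox5a, a matrix-side structural subunit (chr9:57521274-57532426, plus strand), had 80.4 to 156 CPM in sorted cells (median 125) and 20.9 to 50.1 in knockout testes (median 38). The sets stood apart, with a log2 change of -2.01 (SE 0.09, edgeR adjusted p = 4.1e-16). Cox7a2, the widely expressed form of subunit VIIa, went from 42.1 to 131 CPM to 11.6 to 44.2 (-1.91), and Cox4i1, the common form of subunit IV, from 202 to 310 to 118 to 184 (-1.16). Cox6a1 had nearly equal CPM in both sets, medians 169 and 163, and its log2 change of -0.38, which did not pass in the 3 limma fits, was taken with scaling factors of 0.796 to 0.887 for sorted and 1.07 to 1.14 for knockout libraries. Cox7b rose, from a median of 10.3 to 18.7 CPM (0.47, SE 0.17, edgeR adjusted p = 0.011), with overlap.

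In complex V, 14 of 17 nuclear genes fell (median -0.93). The catalytic subunits are the best expressed: Atp5b (chr10:128083273-128090391, plus strand) was at 942 to 1246 CPM in sorted cells and 706 to 988 in knockout testes (-0.69, SE 0.06), and Atp5a1 at 610 to 1164 and 508 to 967 (-0.76). The stalk subunits moved more. Atp5h (subunit d) went from 316 to 389 CPM to 127 to 219 (-1.60, SE 0.07) and Atp5o, the oligomycin sensitivity protein, from 143 to 186 to 40.5 to 81.3 (-1.84, SE 0.08), both without overlap, though 41.1% of Atp5o windows are shared with other genes. Of the proton-conducting subunit c genes, Atp5g3 (0.14) and Atp5g2 (-0.02) did not pass, and neither did Atp5s (-0.07).

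The strongest differences between the sets were in subunit forms restricted to testis. Cox8c (chr12:102899316-102900526, plus strand), the testis form of subunit VIII, measured 27.1 and 55.1 CPM in group A, 50.0 and 42.6 in B, 69.6 and 56.1 in C, 75.9 and 55.9 in D and 50.0 and 106 in E. No count of Cox8c was found in any of the 18 knockout libraries, in 46777980 counts, whereas the sorted libraries held 2194 in 37799934. Against a floor of 3 counts over the knockout libraries (0.0641 CPM) the pooled sorted level of 58.0 CPM makes Cox8c at least 905-fold lower in knockout testes, counting error only. Its widely expressed counterpart Cox8a overlapped, at 54.0 to 115 and 30.7 to 111 CPM (-0.60, SE 0.14).

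Cox7b2, the testis form of subunit VIIb, gave 8.01 to 31.8 CPM in sorted cells (648 counts) and 4 counts in all knockout libraries. The pooled levels were 17.1 and 0.0855 CPM (exact 95% Poisson interval of the latter 0.0233 to 0.219, counting error only), a ratio of 200. Cox6b2, the testis form of subunit VIb, measured 12.4 to 41.7 CPM in sorted cells (median 32.3) and 0.748 to 5.68 in knockout testes (median 1.72), a log2 change of -4.38 (SE 0.19, edgeR adjusted p = 9.8e-17). For none of the 3 testis forms did a knockout library reach the lowest sorted one, where 18.3% of all genes of the joint fit lay wholly below. Cox8c and Cox7b2 entered that fit through their sorted counts alone, so their lack of overlap adds little. In sorted libraries the 3 testis forms stood beside their widely expressed counterparts: the CPM ratio, not corrected for length, was 0.336 to 1.62 for Cox8c to Cox8a, 0.653 to 3.36 for Cox7b2 to Cox7b and 0.204 to 0.737 for Cox6b2 to Cox6b1. Cox6b1 itself was at 49.5 to 91.1 and 44.9 to 94.1 CPM in the sets; its log2 change was -0.34 with scaling factors and 0.05 in limma fits on CPM, so it has no settled direction. Per kilobase, Cox7b2 (31.9) stood above Cox7b (8.34) and Cox6b2 (29.0) below Cox6b1 (86.1). The sorted libraries also carried the germ cell markers given above, with summed elongating spermatid markers of 3746 to 20918 CPM, and the part of germ cell RNA in these levels was not tested.

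**Figure D4:**
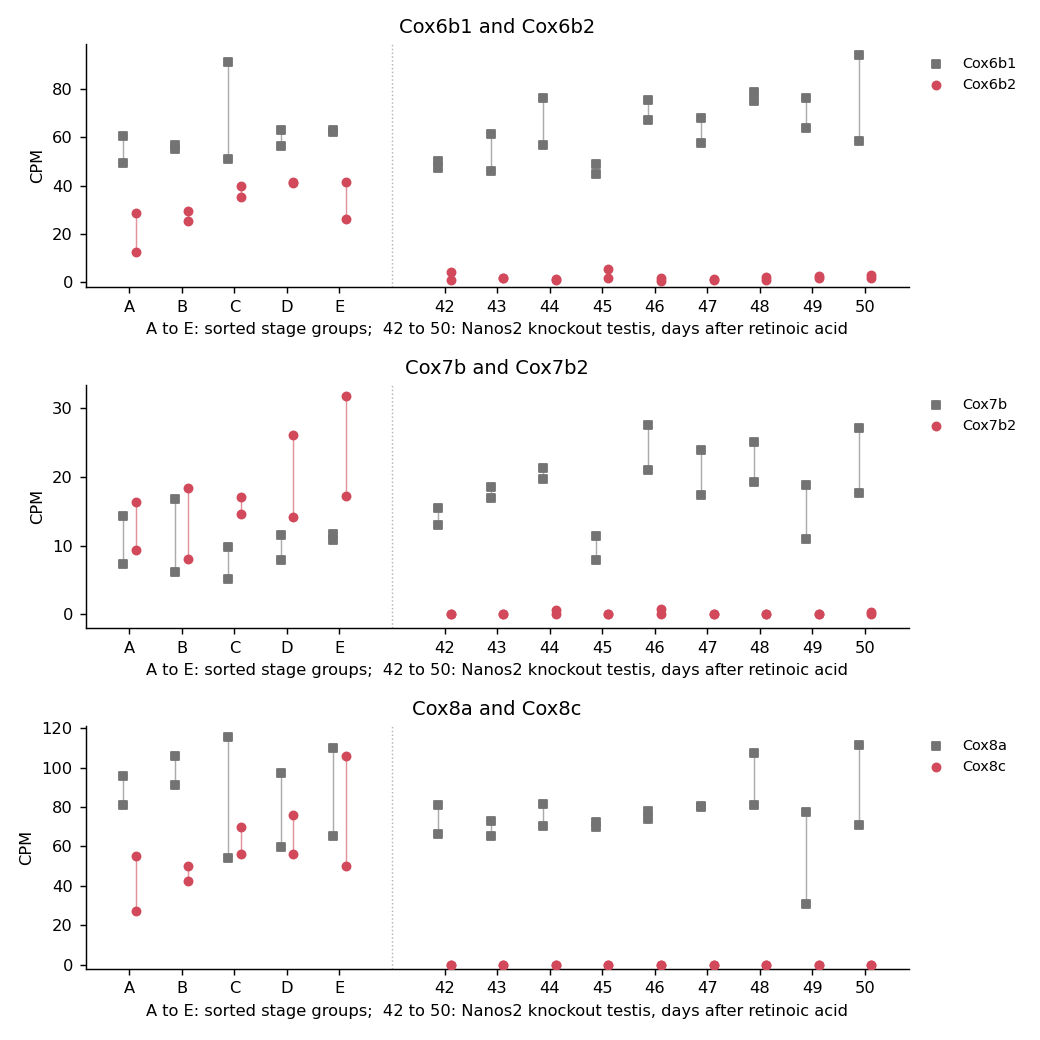
CPM in each library of 3 pairs of complex IV genes, the widely expressed form (grey squares) and the testis form (red circles): Cox6b1 and Cox6b2, Cox7b and Cox7b2, Cox8a and Cox8c. In knockout testes Cox8c is at 0 in all 18 libraries and Cox6b2 reaches at most 5.68, while the grey squares of both sets overlap.

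Forms restricted to other tissues were low. Cox4i2, the lung form, had 9 counts over the sorted and 39 over the knockout libraries, the muscle form Cox6a2 had 11 and 21, and Cox8b had none in either set. These 3 genes passed no filter on low counts. Ndufa4l2, a relative of Ndufa4 induced by low oxygen, was at 1.49 to 6.02 CPM in sorted cells and 0 to 1.69 in knockout testes; like Cox7b2 and Cox8c it entered the joint fit through its sorted counts alone and was not tested within the knockout days. The muscle form Cox7a1, at 0.961 to 23.8 and 5.06 to 10.8 CPM, did not pass between the sets (-0.41, SE 0.21, edgeR adjusted p = 0.076).

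Promoter sequences of the Cox6b and Cox7b pairs are shown, and Cox8c had no promoter entry. The part of promoter letters in the levels of these genes was not tested. RefSeq promoters (GRCm38.p6, 250 bases before to 50 after the start) were on hand for 69 of the 84 nuclear genes, 3 under another symbol. The 4 entries below are Cox6b1 (chr7:30626065-30626364, minus strand), Cox6b2 (chr7:4753045-4753344, minus strand), Cox7b (chrX:106015450-106015749, plus strand) and Cox7b2 (chr5:71548156-71548455, minus strand), and capitals mark a match to the ETS core CCGGAAG on either strand.
Cox6b1 promoter: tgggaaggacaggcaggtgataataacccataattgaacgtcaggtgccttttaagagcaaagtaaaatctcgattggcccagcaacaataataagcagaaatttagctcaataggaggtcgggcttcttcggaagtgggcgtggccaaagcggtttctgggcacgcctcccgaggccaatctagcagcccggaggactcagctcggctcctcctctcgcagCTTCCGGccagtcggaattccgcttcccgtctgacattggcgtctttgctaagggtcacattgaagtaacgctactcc
Cox6b2 promoter: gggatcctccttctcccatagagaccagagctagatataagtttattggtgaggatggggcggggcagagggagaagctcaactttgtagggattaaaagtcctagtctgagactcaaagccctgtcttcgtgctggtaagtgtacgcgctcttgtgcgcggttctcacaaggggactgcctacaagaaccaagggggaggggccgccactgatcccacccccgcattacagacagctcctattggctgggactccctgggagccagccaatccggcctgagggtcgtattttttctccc
Cox7b promoter: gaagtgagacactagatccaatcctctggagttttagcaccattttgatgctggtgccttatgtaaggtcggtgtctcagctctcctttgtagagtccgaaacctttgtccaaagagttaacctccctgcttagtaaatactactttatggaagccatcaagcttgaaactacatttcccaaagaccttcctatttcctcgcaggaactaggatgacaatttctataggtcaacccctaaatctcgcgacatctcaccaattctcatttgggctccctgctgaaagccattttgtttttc
Cox7b2 promoter: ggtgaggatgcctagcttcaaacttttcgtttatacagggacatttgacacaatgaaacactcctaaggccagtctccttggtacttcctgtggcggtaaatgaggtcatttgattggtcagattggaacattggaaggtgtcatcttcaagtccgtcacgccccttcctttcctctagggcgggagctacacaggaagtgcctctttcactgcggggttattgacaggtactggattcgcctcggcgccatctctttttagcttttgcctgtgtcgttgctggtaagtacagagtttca
Cox6b1 held 17 CpG dinucleotides and 1 ETS match, Cox6b2 and Cox7b2 10 CpG each, and Cox7b 5, with no match in the latter 3. Over the 75 promoter entries of the nuclear genes the median was 19 CpG and 57.3% G + C, against 7 and 52.7% over all 32851 entries. Letters known from promoters of respiratory genes were searched on both strands: the NRF1 letters GCGCATGC were in 13.3% of the entries and 2.71% of all, the ETS core in 21.3% and 8.86%, the YY1 letters AAGATGGC in 16% and 2.75%, and the CRE letters TGACGTCA in 5.33% and 1.79%. The end of the ETS core and the start of the YY1 letters are both AAG, so 1 run can hold both. The 10 genes with the NRF1 letters were Atp5g2, Atp5k, Atp5l, Cox6a1, Ndufa11, Ndufa6, Ndufa8, Sdhb, Uqcr11 and Uqcrc1. A match is a run of letters, not a shown binding site, and entries of 1 gene can overlap.

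Between stage groups of sorted cells few subunit genes moved. Tested for any difference among the 5 groups (edgeR, 14331 genes), 1 of 13 mitochondrial and 0 of 81 nuclear genes passed, where 8.07% of all genes did; the one was mt-Nd6 (adjusted p = 0.00294). Against the mean of the other groups, 2 members passed in group D, mt-Nd6 and Cox7a1, both higher, where 8.65% of all genes were called and 4.36% were called higher. No member passed in group A (1.67% of all genes called), B (0.0419%), C (2.64%) or E (0.523%); at an unadjusted p under 0.05 there were 1 mitochondrial and 4 nuclear genes in A, where 13.7% of all genes were, 1 and 3 in B (9.06%), 0 and 5 in C (14.7%), and 0 and 4 in E (11.9%). DESeq2 called 0 members in A and E and 1 in each of B (mt-Nd6) and C (Ndufv3).

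mt-Nd6 measured 101 and 63.1 CPM in group A, 17.9 and 16.0 in B, 59.8 and 26.8 in C, 162 and 140 in D and 46.2 and 71.5 in E. For the sum of the other 12 mitochondrial genes, D1 was the highest sorted library and D2 the lowest. Of those genes mt-Nd3 was an exception, being high in both D libraries, but this depended on its nuclear copy. With the copy's counts added, mt-Nd3 was at 795 CPM in D1, while D2 at 522 was under B1 (744), E1 (568) and E2 (544). For mt-Nd6 both D libraries were above all 8 others and both B libraries below. The log2 change in D was 1.77 (SE 0.26, edgeR adjusted p = 0.00131), and it passed in all 19 alternative fits, with adjusted p from 4.88e-10 to 0.0393. In B the change was -2.12 (SE 0.35, edgeR adjusted p = 0.0576), which passed in 7 of 19 alternatives. Per 1000 counts of the other 12 mitochondrial genes, mt-Nd6 took 0.209 to 3.46 counts in sorted libraries, highest in D2, and 1.33 to 3.79 in knockout libraries apart from 11.1 in day 49 replicate 1. Its mt-Nd6 level of 75.8 CPM lay inside the range of the other knockout libraries, while the other 12 genes were low there. In group D the other 12 had a median log2 change of 0.20, with 11 positive, and the nuclear genes 0.15, with 62 of 81 positive, beside 0.04 for all genes.

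**Figure D5:**
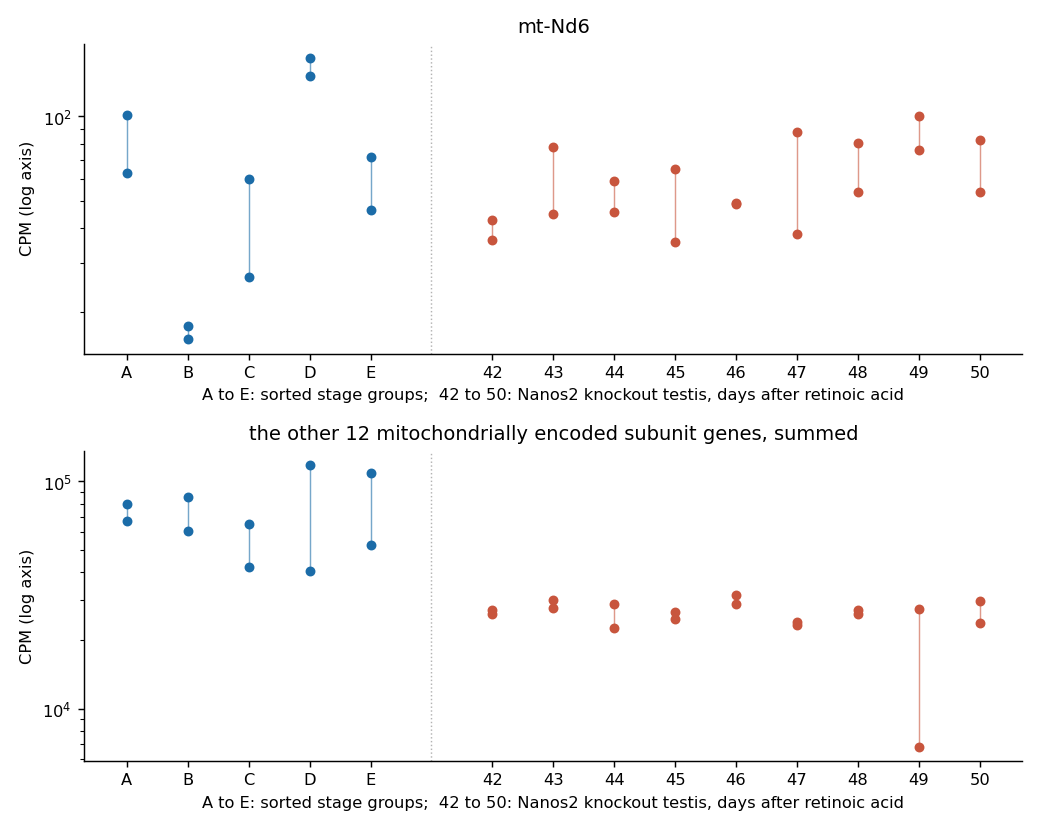
CPM of mt-Nd6 (upper) and the summed CPM of the other 12 mitochondrially encoded genes (lower) in each library, on log axes, for sorted groups A to E and knockout days 42 to 50. mt-Nd6 is at 162 and 140 in group D and 17.9 and 16.0 in group B, while the D libraries of the summed genes lie at the top and bottom of the sorted set.

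Cox7a1 (chr7:30184144-30186078, plus strand) had 4.2 and 4.27 CPM in group A, 6.84 and 0.961 in B, 3.99 and 13.7 in C, 23.8 and 20.6 in D and 12.5 and 16.5 in E. Both D libraries were the highest, with a log2 change of 1.70 (SE 0.45, edgeR adjusted p = 0.0322). The call held in 12 of 19 alternatives, with adjusted p from 5.29e-05 to 0.222, and was lost without D1, D2, E1 or E2 (0.222, 0.167, 0.0806 and 0.0620) and in the 3 limma fits. Cox7a1 is a form typical of striated muscle and heart. Some cell type markers were also called in group D, where 8.65% of all genes were called and 4.36% were called higher. Of elongating spermatid markers 9 of 12 fell (summed 3746 and 5036 CPM against 10863 to 20918 in the other libraries). Of tested Leydig markers 2 of 4 rose, as did 2 of 4 endothelial markers, and 1 of 6 myoid and 1 of 3 macrophage markers fell. Of 12 spermatocyte markers 3 rose and 1 fell, 3 of 12 round spermatid markers rose, and of 17 Sertoli markers 3 rose and 1 fell. The part of these markers in the group D results was not tested.

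Ndufv3, a complex I accessory subunit (chr17:31520115-31531331, plus strand), came next, at 133 and 104 CPM in A, 95.2 and 60.2 in B, 26.1 and 56.4 in C, 101 and 75.5 in D and 157 and 129 in E. Both C libraries were the lowest, and the highest was in E. It missed the threshold for any difference (edgeR adjusted p = 0.0596), in C (-1.33, SE 0.33, adjusted p = 0.0515) and in E (0.89, SE 0.28, adjusted p = 0.187). Over the 19 alternatives it passed for any difference in 9 (adjusted p from 3.19e-05 to 0.176), in C in 10 (0.00039 to 0.392) and in E in 2 (0.0154 to 0.943). Sdhb, at 179 and 165 CPM in D and 76.0 to 186 elsewhere, had a change of 0.69 in D (edgeR adjusted p = 0.0658), which passed in 2 of 19 alternatives. In A, mt-Nd6 changed by 0.76 (SE 0.27, edgeR adjusted p = 0.214 in the fit with nuclear copies added). It passed there in the edgeR fit without a filter alone (adjusted p = 0.0434). Of the nuclear genes, the smallest p in A belonged to Ndufb2 (-0.96, SE 0.38, edgeR adjusted p = 0.267). This complex I accessory subunit was at 4.2 and 3.88 CPM there and 3.20 to 13.3 over the sorted libraries. Ndufa6, another accessory subunit, was at 46.8 and 75.3 CPM in C (-0.76, SE 0.26, edgeR adjusted p = 0.166). No mitochondrial gene passed in C or E, and the sign in E went with 1 library: all 13 changes were positive there (median 0.28), but 11 were negative without E1 (median -0.30). In C all 13 were negative, with a median of -0.67, or -0.28 without C1.

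Over the 9 knockout days no member passed. Tested for any difference between days (edgeR, 13065 genes), 0 of 13 mitochondrial and 0 of 78 nuclear genes were called, where 0.582% of all genes were, with 1 and 12 at an unadjusted p under 0.05, where 11.1% of all genes were, and 0 by DESeq2 or limma on CPM. A straight line over days also called 0 members, where it called 0.857% of all genes, with 5 mitochondrial and 15 nuclear genes at an unadjusted p under 0.05, where 15% of all genes were; DESeq2 called 1, Cox6b1. Of the slopes, none of which passed, 12 of 13 mitochondrial ones were negative (median -0.04 per day on the log2 scale). Of the nuclear slopes 62 of 78 were positive (median 0.02). The median for all genes was 0.001, and their signs were not counted. The members were measured in the same libraries, so their signs are not separate observations. Without day 49 replicate 1 the mitochondrial median was -0.007, with 11 of 13 negative, and 66 of 78 nuclear slopes were positive. The size of the mitochondrial median thus rested on that library, and no trend is read from the signs. The smallest p belonged to Cox6b1 (slope 0.07 per day, SE 0.02, edgeR adjusted p = 0.0716), Atp5k, a dimer-forming subunit of ATP synthase (0.08, SE 0.02, adjusted p = 0.0978), and mt-Nd6 (0.10, SE 0.03, adjusted p = 0.104), the sole mitochondrial gene with a positive slope. Between days Uqcrq (edgeR adjusted p = 0.148) and Uqcr10 (0.186) came closest. Of other lists, 1 of 7 Leydig markers and 3 of 13 immediate early genes rose with the day, and their part in these slopes was not tested.

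Genes that build, feed or express the respiratory chain were read beside the subunits, by lists chosen with earlier results of these data known. Counts are over the genes tested in the sorted, knockout and joint fits alike, of which 43.8% fell and 37.8% rose in knockout testes. Between knockout testes and sorted cells, 65 of 76 mitochondrial ribosomal protein genes fell and 1 rose (median log2 change -0.80), as with Mrpl51 (-1.73, SE 0.07), Mrpl20 (-1.68) and, rising, Mrps35 (0.71). Of 39 complex assembly factors 21 fell and 4 rose (median -0.27); Ndufaf3, needed for complex I assembly, went from 55.6 to 169 CPM to 7.89 to 15.8 (-3.33, SE 0.12), and Ttc19, a complex III factor, changed by 0.90, Tmem126b by 0.72 and Uqcc2 by -2.59. Of 24 genes of mitochondrial transcription, replication and RNA stability 11 fell and 7 rose (median -0.19), Fastkd1 (0.87) and Tbrg4 (-0.97) among them. Tfam, which packages mitochondrial DNA and starts its transcription, was at 31.3 to 194 CPM in sorted cells and 19.1 to 33.7 in knockout testes (-2.25, SE 0.10). Of 8 regulators of mitochondrial biogenesis 4 rose and 3 fell (median 0.26), with Ppard at 1.46, Nrf1 at -0.40 and Esrra at -1.12. Ppara, not tested among sorted groups, was at 0.955 to 3.29 CPM in sorted cells and 9.07 to 17.4 in knockout testes.

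Among carriers, Cycs, the somatic cytochrome c, went from 101 to 215 CPM to 75.4 to 120 (-1.10), and the testis cytochrome c Cyct from 3.82 to 21.5 to at most 0.633 CPM. Of 6 tested genes of that list 3 rose and 2 fell, among them Etfdh (0.59) and the ATP synthase inhibitor Atpif1 (-0.98). Of 19 tricarboxylic acid cycle and pyruvate dehydrogenase genes 11 fell and 2 rose (median -0.35), and the pair of E1 alpha genes parted: the X-linked Pdha1 rose from 9.67 to 25.4 CPM to 34.4 to 53.2 (1.22, SE 0.14) and its testis form Pdha2 was at 22.0 to 121 CPM in sorted cells and at most 0.497 in knockout testes. All 3 other mitochondrially encoded RNAs tested fell (median -3.10), among them the ribosomal RNAs mt-Rnr2, 1767 to 3580 CPM in sorted cells and 189 to 542 in knockout testes, and mt-Rnr1, 735 to 1287 and 78.7 to 357. Within the stage groups Tfam was the list member that moved most: it was at 194 and 152 CPM in A, 156 and 107 in B, 91.7 and 43.3 in C, 31.3 and 36.9 in D and 131 and 144 in E. Both D libraries were the lowest (-1.85, SE 0.30, edgeR adjusted p = 0.00244) and both A libraries were high (1.16, SE 0.24, adjusted p = 0.0321), with 0 of the 12 plus-strand mitochondrial genes called in either group. Of all genes tested among the stage groups 8.65% were called in D, with 4.36% called higher, and 1.67% were called in A. Summed elongating spermatid markers were also lowest in D (3746 and 5036 CPM against 10863 to 20918 in the other sorted libraries). The part of germ cell RNA in the Tfam levels was not tested. In D the complex III assembly factor Uqcc3 rose (0.75, SE 0.22, edgeR adjusted p = 0.0489), as did mt-Tp (1.34, edgeR adjusted p = 0.0295). The biogenesis, carrier, tricarboxylic acid and ribosomal protein lists had 0 calls there.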

How the data were processed

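The deposited tables gave, for 10 sorted and 18 knockout libraries, read counts per gene symbol and a companion table whose name calls it FPKM. Its deposited values equal the authors' count over the library total, times 1000000, within 0.0011, and are used as CPM. Per the submitters' processing notes, TopHat, Bowtie, Cufflinks and the mm10 genome were used; the counting step, annotation and strand setting were not given in the sources used here. Per the labels' protocols, RNA was poly(A)-enriched, so mitochondrial RNA levels also depend on its tails. Symbols turned into dates made up 27 rows (0.215% to 0.332% of counts) and 4 rows repeated a symbol; none is a member.

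Counts were tested with edgeR 4.0.16 (R 4.3.3): filterByExpr, TMM scaling, quasi-likelihood F test, Benjamini-Hochberg over all genes tested, threshold 0.05. Sorted groups, knockout days and all 28 libraries were fitted separately, without covariates; each stage group was set against the mean of the other 4, and these contrasts share libraries. A log2 change is from those fits, and levels per kilobase divide CPM by the merged exon length in GENCODE M21. As alternatives, scaling by RLE, DESeq2 1.42.0, no filter, a replicate block, mitochondrial genes left out of scaling, limma 3.58.1 on log2(CPM + 1) and log2(CPM + 0.1), and each library left out were run. Adding nuclear copies was chosen after seeing the data. Named genes were all mitochondrial members, the 2 nuclear genes highest in CPM per complex, the tissue forms, called genes or the smallest p per test, the 6 largest rises and falls between knockout and sorted libraries, and called genes of the lists, not all of which are given; Uqcrfs1, Uqcrh, Ndufs4, Sdhc and some uncalled members were named after their values were seen. Results on 2 genes that the rule would name are not reported here. Members and lists were chosen with earlier results of these data known. Intervals and floors cover counting error only.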

Additional observations from a re-analysis of the deposited data

How the results depend on the processing

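Counts of subunit genes called depended on the filter and on single libraries within the sorted and knockout sets. Between the sets these moved the counts little, but the 3 limma fits on unscaled CPM did move them. The main fit called 72 nuclear genes lower and 2 higher, beside 59 and 7 in either filtered limma fit. The unfiltered limma fit gave 58 and 9, and 12 mitochondrial genes were called lower in each of these fits. For any difference among stage groups, 1 gene was called, and 10 without a filter (8 of them mitochondrial), 4 with DESeq2 and 2 in each limma fit with a filter. In group A, 0 became 1 without a filter. In B, 0 became 1 without a filter and with DESeq2. In C, 0 became 9 without a filter and 1 with RLE scaling, DESeq2 or either filtered limma fit. In D, 2 became 1 in each of the 3 limma fits. In E, 0 became 1 without a filter. Between knockout days 0 became 23 without a filter (12 mitochondrial, 11 nuclear), and the line over days 1 with DESeq2. Leaving out 1 library gave 1 to 4 calls for any stage difference, 0 in A, 0 to 1 in B, 0 to 2 in C, 1 to 4 in D (4 without C2; 1 without D1, D2, E1 or E2), 0 to 1 in E, 0 to 25 between days (25 without day 49 replicate 2, which leaves the library that stood apart alone on its day, and 3 without day 50 replicate 2), 0 to 4 for the line (4 without day 50 replicate 2) and 85 to 88 of 94 tested for knockout against sorted, where 86 were called. A lone library of a group was assumed to vary like the others. The cause of these moves was not tested. Cox6b1 between the sets reversed from -0.34 to 0.0534, 0.054 and 0.0534 in the 3 limma fits.

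Not every pair of groups gave a correlation over 0.1, so replicate numbers were not taken to pair the libraries: deviations of same-numbered libraries correlated at -0.11 to 0.45 among sorted groups (median 0.21, 6 of 10 pairs over 0.1) and -0.27 to 0.13 among knockout days (median -0.01). In 4 of the 5 sorted groups libraries correlated better with their own number. With the replicate number as a block, 2 subunit genes were called for any stage difference, 1 in B (mt-Nd6, adjusted p = 0.0334) and 1 in C (Ndufv3, 0.0463), 3 in D (mt-Nd6, Cox7a1 and Sdhb, the last at 0.0461), and 0, 0, 0 and 0 in A, E, between days and along the line; 86 were called between the sets.

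Over all genes, leaving out 1 library moved the calls from 414 to 1557 for any stage difference, 295 to 1788 in D and 24 to 909 between days. With 2 libraries per group, changes of low-count subunits such as Cox7a1 or Cox4i2 are poorly resolved.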
